A study of Sus scrofa with 32 samples.

Results

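The runt effect shared across gestation was measured as the mean of 4 within-day differences in pig fetal liver, 16 runt arrays against 16 control arrays, which are all 32 arrays of the study. Every array held the liver RNA of 1 fetus. The groups were runt and control fetuses at gestational days 37, 50, 70 and 110, with 4 fetuses of each type on each day, each day's 4 pairs coming from distinct gilts. Day and type are taken from the sample titles, which the protocol text words differently for both the ages and the control type. All of the gilts, those carrying the controls included, had lost a uterine horn and an ovary to surgery before insemination, which crowds the remaining horn, and runts and controls were described as littermate pairs. Breed, fetal sex and fetal weight are not given in the sources used here, so how small each runt was is not known. The arrays bear on which liver transcripts differ between runts and controls in the same direction from early liver growth to the days before birth.

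The fetal liver makes blood cells and at the same time takes up its hepatocyte work, which includes secretion of plasma proteins, inactivation of steroids and handling of lipids and amino acids. In a crowded uterus some fetuses receive less placental supply and grow slowly, and growth retardation before birth is studied for its lasting effects on liver metabolism. Oestrogens made by the pig placenta reach the fetal liver, where sulfation and oxidation inactivate them.

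Signals were single-colour Agilent intensities, and the level of a feature is the log2 of its background-subtracted signal minus the log2 of the array's 75th percentile, so that 0 is the signal at that percentile. Per array, 55.1% to 65.5% of spots exceeded background clearly in runts and 51.3% to 69.4% in controls, and 0 spots were saturated. Across features, arrays within a group had correlations of 0.961 to 0.985. The number of arrays limits the precision. The hepatocyte genes ALB, AFP, APOA1, TTR, TF and SERPINA1 were above background on all 32 arrays. The arrays came from 9 slides, each with at most 1 array per day, and 8 of the slides held both runts and controls. Replicate 1 of the day 50 runts was alone on slide 9 and was the only array with a different scan date.

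Averaged over the 4 days, the livers of runts held less transcript of the oestrogen sulfotransferase SULT1E1, of albumin and of the acute phase genes LBP and SAA3, and more of 3 spermadhesins, than the livers of controls. The daily differences were uneven, with those of albumin largest at days 37 and 50 and that of LBP at day 50. In the limma fit of all 32 arrays, 71 of 28670 features had a mean effect past an adjusted p of 0.05 (0.248% of all features), 48 higher (0.167%) and 23 lower (0.0802%) in runts. Of the 1596 features with a gene symbol 14 passed (0.877%), 9 higher and 5 lower, and of the 27074 others 57 passed (0.211%). At an unadjusted p under 0.05 the count was 2606 (9.09%), 1630 higher (5.69%) and 976 lower (3.4%). The sizes ran from 0.25 to 2.66 on the log2 scale with a median of 0.73, and 25 features differed at least 2-fold. The median effect of all features was 0.00, and 50.4% of all features had an effect above 0. The calls depended on the days and the model: without day 50, 0 features passed, and with slide as a fixed block 1 feature and 0 of the 14 genes did. In whole liver, fewer cells of a type and less RNA per cell cannot be told apart.

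SULT1E1 (NM_213992), the sulfotransferase that inactivates oestrogens, fell in runts. At day 37 its level was -0.64, -0.82, -1.42 and -2.25 in the runts, against 0.05, 1.42, -1.24 and 1.15 in the controls. At day 50 it was -3.81, -0.95, -2.70 and -1.56 in runts and 1.15, -0.37, -0.91 and 1.23 in controls. All runts of day 50 lay below all controls of that day, while at day 37 one control lay among the runts. At day 70 the runts were at -3.28, -5.60, -4.26 and -4.21 and the controls at -1.53, -1.17, -2.28 and -4.23. At day 110 the values were -2.86, -2.95, -1.92 and -4.38 in runts and -1.26, -0.11, -0.67 and -1.61 in controls. The groups were again apart at day 110, and every one of the 16 runts lay below the control mean of its day. The mean effect was -2.08 (SE 0.36, 95% interval -2.81 to -1.34, adjusted p = 0.0152), a level 4.22-fold lower in runts. The 4 daily differences were -1.63, -2.53, -2.03 and -2.11 in order of day, and the F-test for a difference between days gave an unadjusted p of 0.847. SULT1E1 was above background on 14 of the 16 runt arrays and 15 of the 16 control arrays. With normexp background correction, which adds an offset of 50 to every signal, its effect was -1.14 (adjusted p = 0.00810).

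HSD17B2 (NM_001167649), which oxidises oestradiol to the weaker oestrone, rose in runts by a smaller amount. Its level ran from 6.32 to 7.36 in runts (median 6.73) and from 5.98 to 7.20 in controls (median 6.20). All 16 runts lay above the control mean of their day, and the groups did not overlap on 2 of the days. The mean effect was 0.43 (SE 0.08, adjusted p = 0.0223), or 1.34-fold, with daily differences of 0.37, 0.65, 0.27 and 0.42. In the authors' deposited values it did not pass (0.38, adjusted p = 0.0527). Related enzymes of sulfation and hormone activation were short of the threshold in this fit. SULT1A3, a phenol sulfotransferase, had an effect of -0.56 (adjusted p = 0.0993), and DIO1, the deiodinase that activates thyroid hormone, of -1.09 (adjusted p = 0.0772).

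ALB (NM_001005208), the main plasma protein, fell in runts. At day 37 its level was 3.56, 4.56, 5.04 and 1.56 in runts, against 7.11, 6.31, 5.70 and 5.73 in controls. At day 50 it was 4.43, 3.47, 5.85 and 5.65 in runts and 8.13, 7.61, 7.24 and 7.31 in controls. On both days every runt lay below every control. At day 70 the runts were at 8.03, 7.44, 6.12 and 7.54 and the controls at 8.71, 7.82, 7.18 and 6.88. At day 110 the runts were at 7.24, 7.69, 6.95 and 6.51 and the controls at 8.03, 7.65, 7.87 and 6.85. The groups overlapped on these later days. The mean effect was -1.53 (SE 0.29, adjusted p = 0.0223), 2.89-fold lower in runts, made of daily differences of -2.53, -2.73, -0.36 and -0.50 (F-test across days, unadjusted p = 0.00937). A second ALB probe had a mean effect of -2.07 (adjusted p = 0.00629 when every probe was tested). In the additive model of day and type the adjusted p of ALB was 0.0510. Of the 24 measured plasma protein genes ALB was the 1 that passed, and 21 had an effect above 0 with a median of 0.12. The next members by p were the inhibitor-family protein ITIH4 (0.37, adjusted p = 0.252), the retinol carrier RBP4 (0.21, adjusted p = 0.333) and vitronectin, VTN (0.20, adjusted p = 0.337). AFP, the fetal relative of albumin, had a level of 8.79 to 10.95 in runts (median 9.54) and of 8.70 to 10.08 in controls (median 9.33), with an effect of 0.18 (adjusted p = 0.793). With quantile normalization the plasma protein median was 0.04, with 16 of 24 above 0, and in the authors' deposited values it was 0.03.

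A pair of acute phase genes fell in runts. SAA3 (NM_001044552), a serum amyloid A protein, had levels of -3.23 to 2.93 in runts (median -1.79) and of -2.78 to 3.21 in controls (median -0.19). Its mean effect was -1.28 (SE 0.26, adjusted p = 0.0244), 2.42-fold lower in runts, with daily differences of -0.72, -2.00, -1.63 and -0.75, and 15 of the 16 runts lay below the control mean of their day. A second probe gave -1.30. With normexp the SAA3 effect was -0.87 and did not pass (adjusted p = 0.0591).

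LBP (NM_001128435), the serum protein that carries bacterial lipopolysaccharide to its receptor, differed most at day 50. There its level was -3.01, -2.90, -1.73 and -1.82 in runts, against 0.23, 0.30, -0.50 and 0.25 in controls. That difference of -2.43 passed on its own (adjusted p = 0.00458 within day 50, where 0.0663% of all features passed). On the other days the differences were -0.69, -0.56 and -0.27, and the groups overlapped. The mean effect was -0.99 (SE 0.19, adjusted p = 0.0223), 1.99-fold lower in runts, and the F-test across days gave an unadjusted p of 0.00152. In the additive model the adjusted p of LBP was 0.0644. Of the 12 measured acute phase genes 0 rose, 2 fell (against 0.0802% of all features) and 10 did not pass, with a list median of -0.01. Haptoglobin, HP, was at -0.57 (adjusted p = 0.137), the iron regulator hepcidin, HAMP, at 0.60 (adjusted p = 0.428), and the LBP partner CD14 at -0.05.

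**Figure D1:**
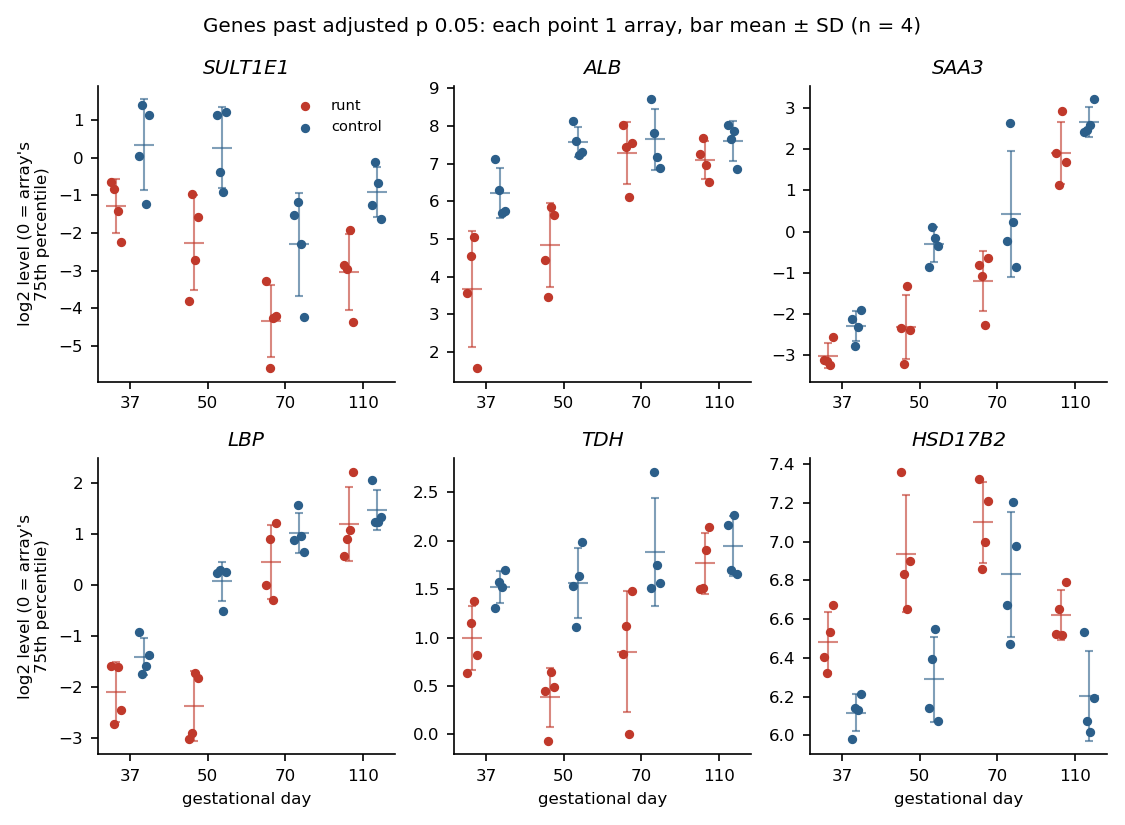
Levels of 6 genes past the threshold by gestational day (log2 level, 0 is the array's 75th percentile), runts in red left of controls in blue, each point 1 array and each bar the mean ± SD of 4. SULT1E1 lies lower in runts on every day with a mean effect of -2.08, ALB is apart at days 37 and 50 and overlaps later, and HSD17B2 lies higher by 0.43 on average.

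Spermadhesins are small secreted proteins of the pig, best known from seminal plasma, where they coat sperm and bind carbohydrate and heparin. 3 of the 4 measured members rose in runt liver, against 0.167% of all features, and the fourth had the same sign. This list was chosen with earlier results of these data known. SPMI (NM_001031776), a spermadhesin that associates with the sperm membrane, was at -0.93, 0.82, 0.34 and 0.24 in day 37 runts, against -2.89, -1.94, 0.25 and -0.42 in controls. At day 50 it was at -0.41, -1.75, -1.58 and -0.73 in runts and -4.89, -4.77, -3.61 and -4.95 in controls, which is the one day with no overlap. At day 70 the runts were at -2.97, -0.62, -0.37 and -3.89 and the controls at -6.64, -3.85, -1.72 and -3.38. At day 110 the runts were at -1.31, -1.02, -7.46 and -5.56 and the controls at -7.93, -7.54, -7.55 and -6.89. The day 110 runts fell into 2 high and 2 low arrays, and 0 of the 4 controls of that day were well above background. The mean effect was 2.60 (SE 0.54, 95% interval 1.48 to 3.71, adjusted p = 0.0318), and all 16 runts lay above the control mean of their day. For the 2 low runts of day 110 that order is not a measured difference. They lay below the background limits of their arrays (-5.19 and -4.49), as did the controls of that day below theirs. With the day 110 controls set at their background limits and the runts as read, that day's difference was 1.39 and the mean of the 4 days 2.03. As the 2 low runts are themselves below background, 1.39 is not a strict lower bound. With normexp the SPMI effect was 1.14 (adjusted p = 0.0233), and with no filter on dim probes its adjusted p was 0.0523.

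PSP-I (NM_213837), a subunit of the seminal heterodimer PSP-I/PSP-II, had levels of -2.49 to 0.19 in runts (median -1.47) and of -4.89 to -0.15 in controls (median -2.91). Its mean effect was 1.46 (SE 0.25, adjusted p = 0.0152), 2.76-fold, with daily differences of 0.91, 2.39, 0.42 and 2.14 and no overlap at days 50 and 110. A second PSP-I probe had an effect of 1.64 (adjusted p = 0.00971 when every probe was tested). With normexp the PSP-I effect was 0.71 (adjusted p = 0.0179). PSP-II, the partner subunit, was at 4.11 to 6.60 in runts (median 4.91) and at 1.42 to 5.87 in controls (median 4.63), an effect of 0.70 that did not pass (adjusted p = 0.268). AQN-1 (NM_001025210), which takes part in sperm binding to the oviduct, rose by 1.63 (SE 0.35, adjusted p = 0.0382), with daily differences of 0.50, 2.78, 1.51 and 1.75. AQN-1 was above background on 14 of 16 runt arrays and 6 of 16 control arrays, and on 0 of the 4 day 110 controls. The AQN-1 difference of 1.75 at day 110 is therefore not a measured size. With day 110 at its bound the AQN-1 mean was 1.19. AQN-1 did not pass with normexp (0.42, adjusted p = 0.0820), in the additive model (0.0510) or with no filter on dim probes (0.0613). Spermadhesin genes are close in sequence, so probes of 1 member may read another, and the members are not independent. NM_213820, a RefSeq transcript of the array with no symbol in the annotation used, had the largest fitted rise (2.66, adjusted p = 0.0223), but 0 of 4 day 110 controls were above background. With that day at its bound of 2.76 its mean was 2.25, and with normexp it was 1.45.

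**Figure D2:**
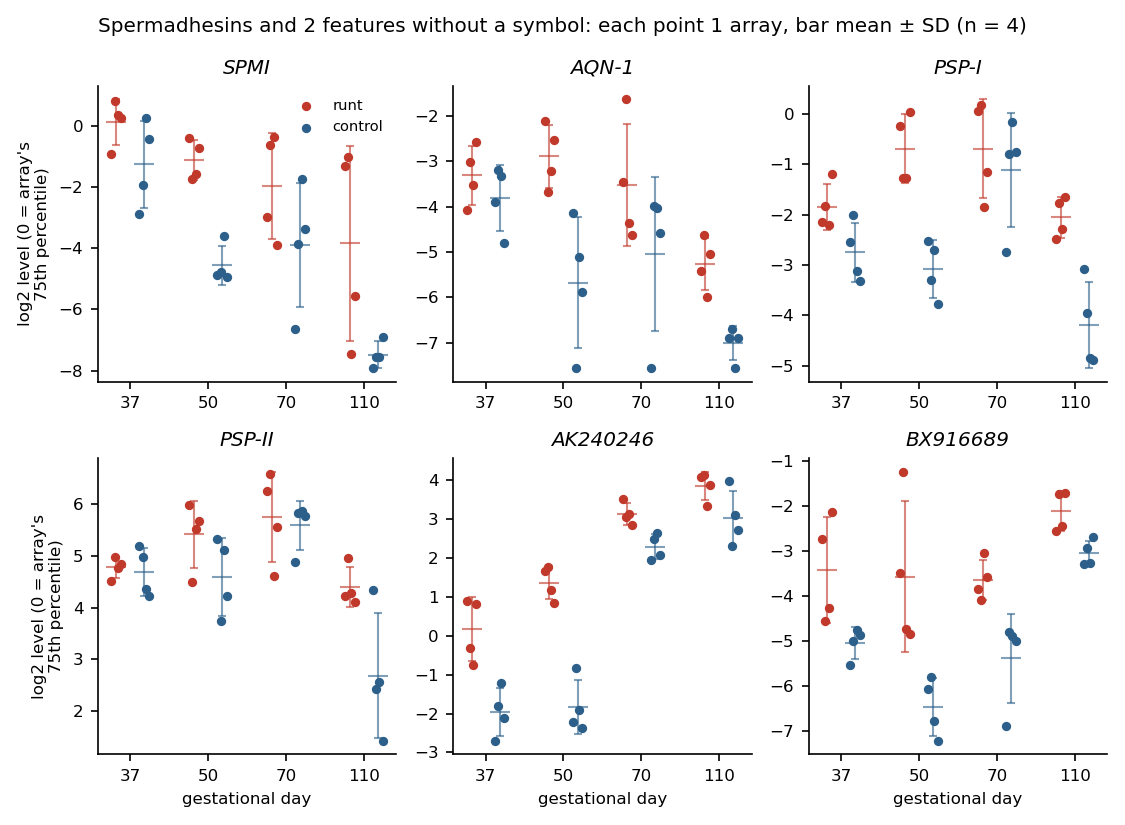
Levels of 4 spermadhesins and of 2 features without a symbol by gestational day (log2 level, 0 is the array's 75th percentile), runts in red left of controls in blue, each point 1 array and each bar the mean ± SD of 4. BX916689 is the feature whose runts lie above all controls on all 4 days, with some arrays below background. The SPMI runts and PSP-II controls spread widely at day 110.

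Enzymes of amino acid, fatty acid and phospholipid metabolism were also among the genes past the threshold. TDH (NM_214004), the mitochondrial threonine dehydrogenase, had levels of -0.07 to 2.14 in runts (median 0.97) and of 1.11 to 2.71 in controls (median 1.65). It fell by 0.73 (log2 effect -0.73, SE 0.14, adjusted p = 0.0223), 1.66-fold, in 15 of 16 runts relative to the control mean of the day, and a second probe gave -0.71. The TDH differences were -0.53, -1.19, -1.03 and -0.18 in order of day. ACAA2 (NM_001167638), the mitochondrial thiolase of the last step of fatty acid oxidation, ran from 3.53 to 5.01 in runts (median 4.56) and from 2.92 to 4.82 in controls (median 3.89). It rose 1.54-fold (0.62, SE 0.14, adjusted p = 0.0491), with all 16 runts above the control mean of their day. PEMT (NM_214365), which methylates phosphatidylethanolamine to phosphatidylcholine, ran from 6.37 to 7.59 in runts (median 6.96) and from 5.99 to 7.04 in controls (median 6.43). It rose 1.37-fold (0.46, SE 0.10, adjusted p = 0.0493). ACAA2 and PEMT each passed in 10 of the 32 fits that left out 1 array, with adjusted p up to 0.0925 and 0.104. Neither passed with quantile normalization (0.0510 and 0.0968), in the authors' deposited values (0.0527 and 0.112), in the additive model (0.0586 and 0.0510) or with no filter on dim probes (0.0845 and 0.0923), and PEMT did not with median centring (0.0571).

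ACAA2 was the 1 member of 12 measured fatty acid oxidation and ketogenesis genes that passed, and the list median was 0.01 with 6 members on either side of 0. The pyruvate dehydrogenase kinase PDK4 was at 0.91 (adjusted p = 0.0894), and its other probes were at 0.71 and -0.04. The medium-chain and long-chain acyl-CoA dehydrogenases ACADM (-0.24, adjusted p = 0.22) and ACADL (-0.23, adjusted p = 0.324) had the opposite sign to ACAA2 and did not pass. Of 9 measured genes of the urea cycle and amino acid breakdown 0 passed, with a median of -0.14 and 7 below 0. Among those were cystathionine gamma-lyase, CTH (-0.29, adjusted p = 0.312), the glycine methyltransferase GNMT (-0.55, adjusted p = 0.32) and arginase, ARG1 (-0.14, adjusted p = 0.625). Of 21 measured genes of xenobiotic and retinoid metabolism SULT1E1 was the 1 that passed, beside the cytochrome P450 CYP2C49 at -1.54 (adjusted p = 0.148) and CYP2D25 at 0.33 (adjusted p = 0.521).

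KISS1R, CCND2 and DIRAS2, genes of signalling and growth control, rose. KISS1R (NM_001044624), the kisspeptin receptor, ran from -3.18 to -1.60 in runts (median -2.37) and from -3.52 to -2.06 in controls (median -2.81). All 16 runts lay above the control mean of their day, an effect of 0.50 (SE 0.10, adjusted p = 0.0229), with daily differences of 0.42, 0.58, 0.33 and 0.67. With normexp the KISS1R effect was 0.25 and did not pass (adjusted p = 0.114). CCND2 (NM_214088), the D-type cyclin that drives entry into the cell cycle, ran from 3.34 to 5.23 in runts (median 4.09) and from 2.71 to 4.77 in controls (median 3.52). At day 110 it was at 3.74, 4.57, 4.17 and 4.45 in runts, against 2.84, 3.48, 2.88 and 2.71 in controls, with no overlap. Its mean effect was 0.60 (SE 0.13, adjusted p = 0.0353), with daily differences of 0.38, 0.51, 0.28 and 1.26. A dimmer CCND2 probe was at 0.44 and did not pass (adjusted p = 0.284). The adjusted p of the brighter probe was 0.0586 in the additive model and 0.0613 with no filter on dim probes. DIRAS2 (NM_001078682), a Ras-like GTPase, had an effect of 1.51 (adjusted p = 0.0248) but was above background on 5 of 16 runt arrays and 2 of 16 control arrays, 4 of the 5 at day 110, and with bounds for the dim days its mean was 1.06. With normexp it was 0.32 and did not pass (adjusted p = 0.0512), nor did it in the additive model (0.0734). It did not meet the rule for named genes and is given because it passed.

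The other 8 measured cell cycle genes all had effects below 0 and 0 of them passed, so the list held 1 rise, 0 falls and a median of -0.17. The mitotic genes CDKN3 (-0.23, adjusted p = 0.399), CCNB1 (-0.25, adjusted p = 0.509) and CDK1 (-0.23, adjusted p = 0.583) had the smallest p among them. Within slides 1 to 3, 4 of the 9 members were above 0. 2 genes close to the threshold on the higher side were MNAT1, an assembly factor of the CDK-activating kinase (0.44, adjusted p = 0.0553), and the mitochondrial adenylate kinase AK4 (0.37, adjusted p = 0.0577). AK4 did not overlap between runts and controls on 3 of the 4 days. In all, 3 features (0.0105%) had no overlap on 3 or 4 days in 1 direction.

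Complement is the plasma cascade that opsonises and lyses microbes, and most of its proteins come from the liver. Of 20 measured complement genes 0 passed, 16 had an effect below 0, and the list median was -0.26, against 0.00 for all features. An unadjusted p under 0.05 was reached by 8 members, all lower in runts, against 3.4% of all features in that direction. C8B, a chain of the membrane attack complex, had a level of -0.76 to 4.68 in runts (median 1.39) and of 1.62 to 4.51 in controls (median 2.30). Its effect was -0.85 (SE 0.21, adjusted p = 0.0697), from daily differences of -1.20, -1.93, -0.31 and 0.06. The mannose-binding lectin MBL1 was at -0.57 (adjusted p = 0.0999), the C8 alpha chain C8A at -0.56 (adjusted p = 0.107) and the protease C1S at -0.71 (adjusted p = 0.137). The list median by day was -0.07, -0.76, -0.13 and -0.20. Its sign held under each scaling tried, in a range of -0.28 to -0.16 for other normalizations and the authors' deposited values.

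All 18 measured ribosomal protein genes had effects above 0 (50.4% of all features did) with a median of 0.17, and 0 of the 18 passed. RPS3, a protein of the small subunit, had the smallest p of the list, at 7.70 to 8.63 in runts (median 7.97) and 7.28 to 8.24 in controls (median 7.71). Its effect was 0.25 (SE 0.08, adjusted p = 0.207), and RPL7 (0.18, adjusted p = 0.313) and RPL29 (0.16, adjusted p = 0.47) followed. This list depended on the scaling. Its median was 0.03 with quantile normalization, with 15 of 18 above 0, and 0.03 in the authors' deposited values, with 16 of 18. Of 11 hypoxia responsive genes 0 passed and 9 were above 0 (median 0.14), led by the collagen prolyl hydroxylase subunit P4HA1 (0.51, adjusted p = 0.0802) and PDK4. Of 6 genes of amino acid and unfolded protein stress 0 passed and 5 were above 0 (median 0.21), among them the transcription factor XBP1 (0.21, adjusted p = 0.207, with other probes at 0.30 and 0.23 that did not pass), the chaperone HSP90B1 (0.21, adjusted p = 0.246) and asparagine synthetase, ASNS (0.24, adjusted p = 0.401).

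**Figure D3:**
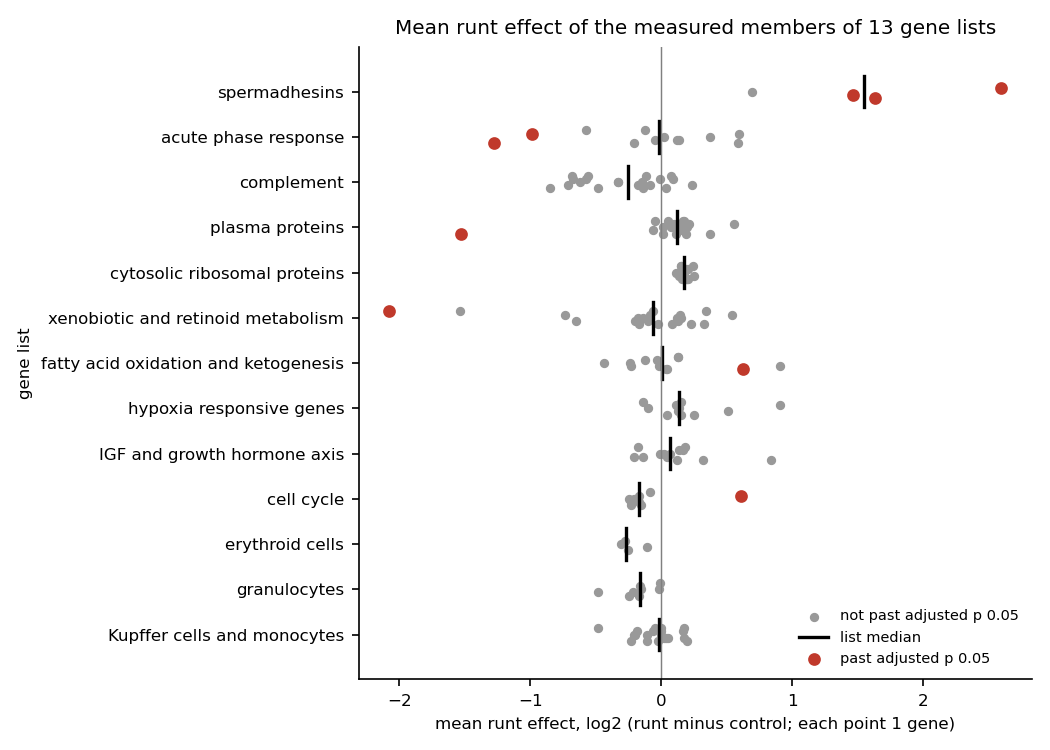
Mean runt effect over the 4 days (log2, runt minus control) of each measured member of 13 gene lists, red where adjusted p is under 0.05, with a bar at the list median. Spermadhesins lie to the right (median 1.55), complement to the left (median -0.26), and ALB stands apart from the other plasma proteins.

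Growth factor genes, often studied in growth-retarded fetuses, gave 0 calls among 13 measured members of the IGF and growth hormone axis (median 0.06, 9 above 0). IGFBP2, a binding protein that holds insulin-like growth factors in plasma, was at 1.81 to 8.55 in runts (median 7.07) and 1.49 to 8.34 in controls (median 5.52). Its effect was 0.84 (SE 0.23, adjusted p = 0.116), with daily differences of 1.01, 1.44, 0.56 and 0.35. The growth hormone receptor GHR was at 0.31 (adjusted p = 0.518), IGF1 at -0.21 (95% interval -0.45 to 0.03), IGF2 at 0.17 (95% interval -0.03 to 0.37) and IGFBP3 at 0.05. The intestinal and hepatic apolipoprotein APOA4 had an effect of 0.55 (adjusted p = 0.732), the bile acid enzyme CYP7A1 of 0.34, the cortisol-regenerating enzyme HSD11B1 of 0.07 and the imprinted growth regulator DLK1 of -0.07. CYP7A1 was above background on 3 runt arrays and 1 control array. No probe named IGFBP1, H19, PCK1 or G6PC was tested.

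Markers of other cells were followed beside these results, with 50.4% of all features having an effect above 0. Of 4 erythroid genes 0 passed and all 4 had an effect below 0 (median -0.27), the transferrin receptor TFRC at -0.28 and the erythropoietin receptor EPOR at -0.26. Of 8 granulocyte genes 0 passed and all 8 were below 0 (median -0.17), with daily medians of 0.21, 0.41, -0.42 and -0.82. Their median was 0.07 without day 110 and 0.11 within slides 1 to 3. Of 20 genes of Kupffer cells and monocytes 0 passed, with a median of -0.02. In the list of 6 pancreas genes 0 passed, with the phospholipase PLA2G1B at 0.90 (adjusted p = 0.12), the elastase CELA2A at -0.32 and the amylase AMY2 at -0.07. In the list of 13 gut, kidney, gonad and adrenal genes 0 passed, and SLC15A1, the peptide transporter of gut and kidney, was at -1.39 to 4.06 in runts (median 1.20) and -2.21 to 3.84 in controls (median -0.71), an effect of 1.21 (adjusted p = 0.0664). The part of other cells in the called differences was not tested. Over the 36 lists 349 genes were measured and 9 of them passed, beside 0.877% of all features with a symbol. The lists were chosen with earlier results of these data known, so that count is a description. Tests of these 349 genes were part of the fit of all features.

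Most of the features past the threshold have no gene symbol here, and the feature with the smallest p of all was one of them. AK240246, named here as in the array files, had levels of 0.90, -0.32, -0.74 and 0.81 in day 37 runts, against -2.70, -1.80, -1.23 and -2.12 in controls. At day 50 it was at 1.66, 1.78, 1.18 and 0.84 in runts and -2.21, -0.84, -1.91 and -2.37 in controls. At day 70 it was at 3.51, 3.04, 3.13 and 2.84 in runts and 1.96, 2.47, 2.64 and 2.08 in controls. Every runt lay above every control on these 3 days. At day 110 the runts were at 4.08, 4.13, 3.34 and 3.86 and the controls at 3.96, 2.30, 3.09 and 2.72, and the groups overlapped. The mean effect of AK240246 was 1.75 (SE 0.19, 95% interval 1.36 to 2.14, adjusted p = 3.00e-05), 3.36-fold. Its daily differences were 2.12, 3.20, 0.84 and 0.83. It passed in all 32 fits that left out 1 array, in 18 of 20 other settings, and was the 1 feature that passed with slide as a fixed block.

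BX916689 was the 1 feature of 28670 (0.00349%) in which all runts lay above all controls on each of the 4 days. At day 37 it was at -2.74, -4.55, -4.27 and -2.12 in runts and -5.54, -5.00, -4.75 and -4.86 in controls. At day 50 it was at -3.47, -1.23, -4.72 and -4.85 in runts and -6.05, -5.81, -6.77 and -7.21 in controls. At day 70 it was at -3.84, -4.09, -3.03 and -3.58 in runts and -6.88, -4.78, -4.88 and -4.99 in controls. Even the lowest runt of day 70 lay above the highest control of that day. At day 110 the runts were at -2.54, -1.72, -2.45 and -1.71 and the controls at -3.28, -2.93, -3.27 and -2.69. The groups came closest at days 37 and 110, where the lowest runt and the highest control nearly met. The mean effect was 1.80 (SE 0.30, adjusted p = 0.0143). The signal was dim, above background on 13 of 16 runt arrays and 5 of 16 control arrays, with 0 of 4 controls at days 37 and 50, and with those days at their bounds the mean was 1.43. The runts at -4.27 on day 37 and -4.85 on day 50 lay below the background limits of their arrays (-4.13 and -4.79). Their order against the controls of those days is not a measured difference. With normexp BX916689 was at 0.49 and did not pass (adjusted p = 0.0561). The other rises without a symbol taken by the naming rule were TC482529 (1.81) and BX925993 (1.56). XM_001928937 had a larger fitted rise (2.26, adjusted p = 0.0382) but was above background on 11 runt arrays and 1 control array, short of the rule, and its mean with bounds was 1.19. The falls without a symbol taken by the rule were NM_214224 (-2.49, adjusted p = 0.0248), BP453986 (-2.35, adjusted p = 0.00821), BP447482 (-1.51, adjusted p = 0.00821), TC425713 (-1.27) and TC450862 (-1.23). With dim days at their bounds BP453986 was at -1.98 and TC425713 at -0.86. With normexp NM_214224 (-1.38, adjusted p = 0.0796) and TC425713 (-0.10, adjusted p = 0.865) did not pass, and BP453986 was at -0.89. BX921537, outside the rule with 1 sign on 3 of the days, had a larger fall than TC425713 and TC450862 (-1.50, adjusted p = 0.0230), with differences of 0.04, -0.63, -1.68 and -3.71. BP447482 differed most at day 110, at -0.74, -0.68, -0.42 and 0.24 in runts and 2.80, 2.09, 2.90 and 2.74 in controls.

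How far the effect was shared between days was read from the same 71 features. They were chosen by the mean of the same 4 differences, so their daily sizes, daily p-values and overlaps are selected too. Their contrast with all features below is a description and does not test sharing. 68 of them had the same sign on all 4 days, against 21% of all features, and the sign is part of what a mean over days selects. The groups did not overlap on 4 days for 1 feature, on 3 days for 1, on 2 days for 35, on 1 day for 31 and on none for 3. At least 2 days without overlap in 1 direction held for 0.453% of all features. The largest of the 4 daily differences was at day 50 for 52 of the 71, at day 110 for 15, at day 37 for 4 and at day 70 for 0. Their median absolute difference was 0.55 at day 37, 1.07 at day 50, 0.42 at day 70 and 0.58 at day 110, beside 0.13, 0.18, 0.13 and 0.15 for all features. Tested one day at a time, limma called 0 features at day 37 (0%), 19 at day 50 (0.0663%), 0 at day 70 and 4 at day 110 (0.014%). At an unadjusted p under 0.05 the counts were 726 (2.53%), 2117 (7.38%), 521 (1.82%) and 1261 (4.4%) in order of day. Of the 71 features, 35, 69, 24 and 39 were among those. Across all 28670 features the daily differences correlated at 0.01 to 0.32 between pairs of days, as a description over arrays that share slides.

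**Figure D4:**
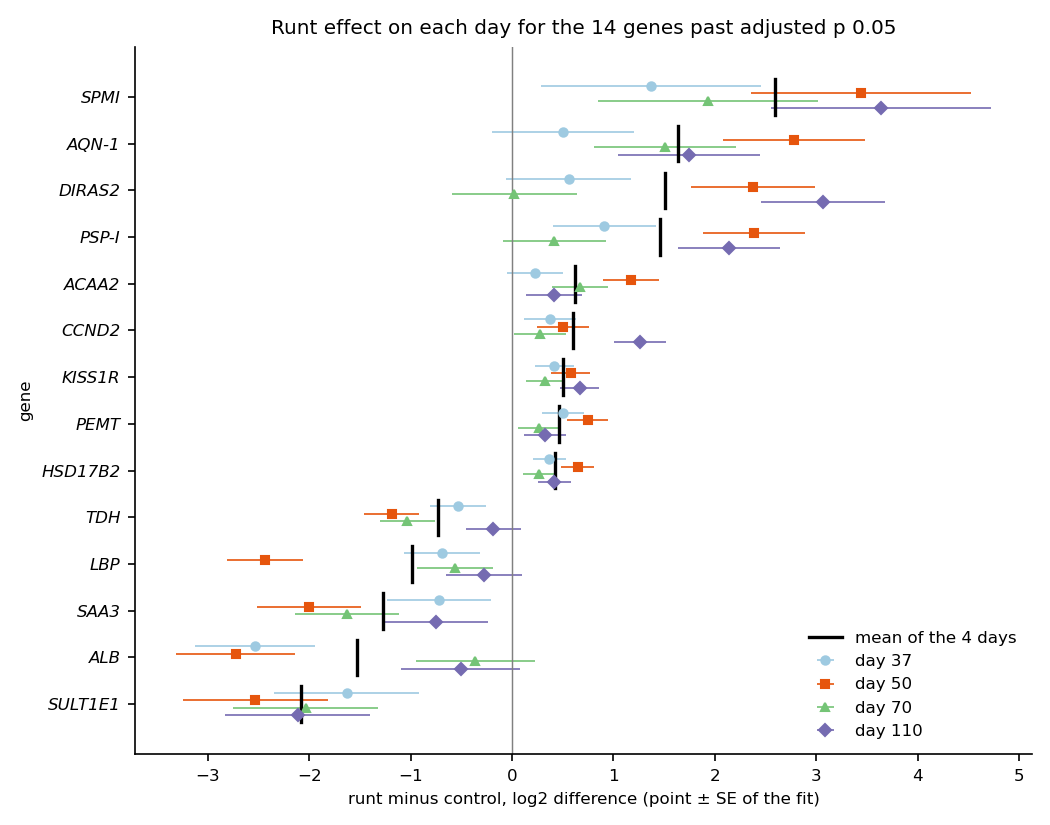
Runt minus control difference (log2) on each of the 4 days for the 14 genes past adjusted p 0.05, points with the SE of the fit and a black bar at the mean of the 4 days. SULT1E1 runs from -2.53 to -1.63 and KISS1R from 0.33 to 0.67 over the days, while LBP is at -2.43 on day 50 against -0.27 on day 110, and ALB at -2.53 on day 37 against -0.36 on day 70.

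Whether the runt effect varied with day was asked by an F-test in the same fit. 1 feature passed (0.00349%), and 439 had an unadjusted p under 0.05 (1.53%), 23 of the 71 among them. The 1 feature was CN160809, chosen after its values were seen, with differences of 0.06, -2.67, -0.50 and 0.05 in order of day (F-test adjusted p = 0.0203). At day 50 its runts were at -6.78, -7.18, -6.44 and -6.48, none above background, and its controls at -3.95, -4.47, -4.10 and -3.68, so that day's difference is known only as a bound of -0.75, and its mean with bounds was -0.17. The genes with the smallest F-test p did not pass. NR1I2, the pregnane X receptor, was at -6.10, -7.07, -6.07 and -5.51 in day 50 runts, none above background, against -3.25, -4.84, -3.82 and -3.73 in controls (adjusted p = 0.0201 within day 50, with a bound of -0.89), while at day 110 its difference was -0.11. GLUL, glutamine synthetase, had differences of 0.54, 0.94, 0.59 and -0.77, and its 3 other probes had effects of the same sign. The serpin SERPINA3-2 had -0.17, -0.87, -0.29 and 0.48, and the chemokine receptor CCR1 0.71, -0.31, -0.48 and -0.51, with a mean effect of the other sign for a second CCR1 probe (0.06).

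Each day was then left out in turn, and the mean of the other 3 was tested. Without day 37, 10 features passed, and 8 of the 10 had the same sign on day 37, of all features 59.2%. An unadjusted p under 0.05 with that sign was reached on day 37 by 1 of the 10, against 1.56% of all features. Their median effect was 0.92 on the other 3 days and 0.40 in the same direction on day 37. Without day 70, 61 passed, and 58 of the 61 had the same sign on day 70 (54.5% of all features). Of these, 8 had an unadjusted p under 0.05 on day 70, which with the same sign held for 1.13% of all features. The median effect of the 61 was 1.00 on the other 3 days and 0.36 in the same direction on day 70. Without day 110, 1 passed. Without day 50, limma called 0 features, with 1257 at an unadjusted p under 0.05. Of the 14 genes, 1 passed without day 37, 0 without day 50, 11 without day 70 and 0 without day 110. All 14 kept their sign each time. That was fixed in advance, since each had 1 sign on all 4 days. SULT1E1 without day 50 was at -1.92 (adjusted p = 0.239) and ALB at -1.13 (adjusted p = 0.96). Fewer arrays enter each of these fits.

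Slides were handled in 4 ways. With slide as a fixed block 1 feature passed (3418 at an unadjusted p under 0.05, 16 residual degrees of freedom against 24), and 0 of the 14 genes, whose adjusted p ran from 0.112 for SULT1E1 (-1.88) to 0.191 for AQN-1 (1.49). With slide as a random block 188 passed, and with the 2 slide sets as a block 126, the 71 included in both counts. Within slides 1 to 3, with 6 runts and 6 controls, limma called 0 features (1020 unadjusted), and within slides 4 to 9, with 10 of each, 23, of which 16 were among the 71. In each of these fits all 71 kept their sign, but they were chosen on these same arrays. SPMI was at 0.83 within slides 1 to 3 and 3.87 within slides 4 to 9 (adjusted p = 0.00592), LBP at -0.41 and -1.34 (adjusted p = 0.0474), ALB at -0.92 and -1.76, and SULT1E1 at -1.80 and -2.24. Since no slide holds 2 arrays of one day, no runt can be set against a control of its day within a slide.

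**Figure D5:**
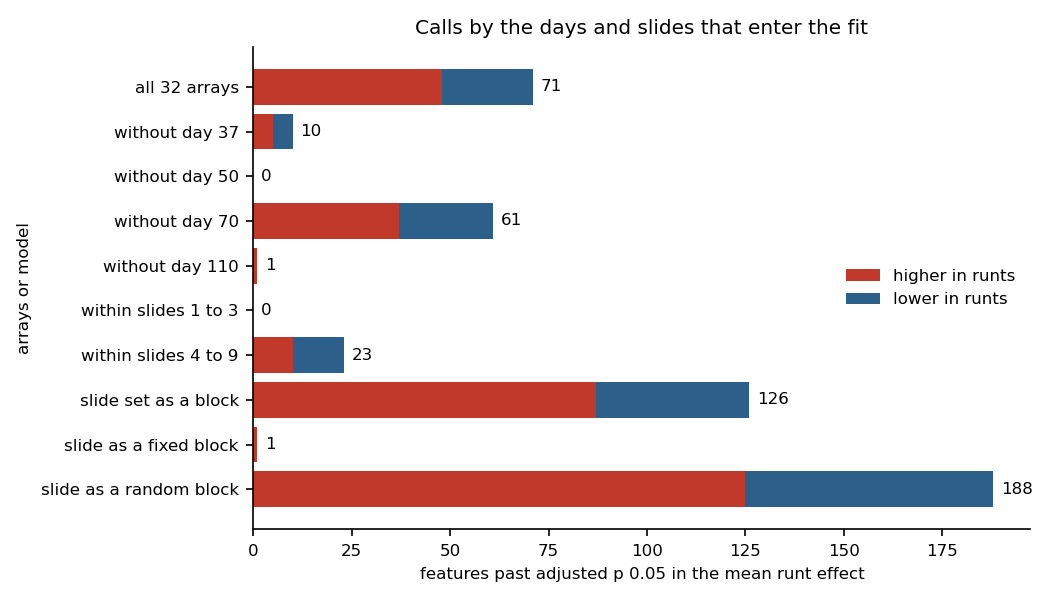
Number of features past adjusted p 0.05 in the mean runt effect, higher (red) and lower (blue) in runts, for all 32 arrays and for other choices of days and slides. The count is 71 with all arrays, 0 without day 50, 1 without day 110 and 188 with slide as a random block.

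Each array was also left out in turn, which gave 36 to 155 features past the threshold (median 60.5). All 71 kept their sign in the 32 fits, which is a description, as the same arrays chose them. The count was lower by over 1.5 times without replicate 4 of the day 37 runts (36), replicate 1 of the day 50 runts (45), replicate 1 of the day 70 runts (45), replicate 1 of the day 50 controls (43) and replicate 1 of the day 70 controls (36). It was higher by as much without replicate 2 (114) or 3 (155) of the day 37 runts, replicate 3 of the day 50 runts (151), replicate 3 of the day 110 runts (119), replicate 3 of the day 70 controls (134) and replicate 1 of the day 110 controls (152). SULT1E1, PSP-I, TDH, LBP, HSD17B2, ALB, KISS1R and SAA3 passed in all 32 fits. DIRAS2 passed in 26, SPMI in 19 (adjusted p up to 0.0658), CCND2 in 18 (up to 0.0748) and AQN-1 in 17 (up to 0.0813).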

How the data were processed

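Liver RNA of 32 pig fetuses was hybridised to single-colour Agilent arrays, 1 fetus an array. Per the file headers, spot intensities, background-subtracted signals and flags came from Feature Extraction 10.7.3.1, and the deposited log2 values of the series table were made with Partek, per the submitters' processing notes (its version is not given in the sources used). The processed intensity was divided by each array's 75th percentile and taken to log2. Control spots and spots with outlier flags were left out, and spots of a probe were averaged. Testing required a probe to exceed background clearly in 3 or 4 arrays of some group, and the brightest probe stood for a symbol. Symbols came from RefSeq accessions matched to the Sscrofa11.1 gene table: 2683 of 43603 probes matched, giving 1904 symbols, and 28670 features were tested. The groups' means were fitted with limma 3.58.1 (R 4.3.3), and the mean of the 4 runt minus control differences was tested against 0, two-sided, with Benjamini-Hochberg adjustment over all features. The script was checked on simulated data. Where a day's group was not above background on any array, the difference was bounded at the lowest well-above-background signal of each array.

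Named genes were the rises and falls past the threshold with 1 sign on all days and the higher type above background in 12 or more of 16 arrays, completed to 10 a direction by the smallest p, then 5 features without a symbol in each direction, 5 symbols by the F-test, the leading members of each list and a panel of growth and liver genes. The members and lists were chosen with earlier results of these data known. Normexp used the median signal, since the files hold no mean signal. The p-values measure the spread between fetuses of a group.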

Additional observations from a re-analysis of the deposited data

Results flagged for a closer look

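The following arrays stood apart from the other 3 of their group by a Dixon test, which chance passes in about 1 in 20 groups. For 25 features, 9 of 200 groups (4.5%) did so. In runts, KISS1R was at -2.27 in replicate 4 of day 50, against -2.58 to -2.54 in the others. SAA3 was at -2.55 in replicate 4 of the day 37 runts, against -3.23 to -3.13, and TC450862 at -0.61 in the same array, against -0.93 to -0.88. In controls, LBP was at -0.50 in replicate 3 of day 50, against 0.23 to 0.30, and at 2.05 in replicate 1 of day 110, against 1.23 to 1.33. KISS1R was at -2.94 in replicate 3 of the day 37 controls, against -3.47 to -3.39. SPMI was at -3.61 in replicate 3 of the day 50 controls, against -4.95 to -4.77. Replicate 1 of the day 70 controls was low for AQN-1 (-7.55, against -4.59 to -3.98) and for BX916689 (-6.88, against -4.99 to -4.78).

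The runt effect of CN160809 differed between days in the main fit (limma F-test, adjusted p = 0.0203), with a fall at day 50 that is known only as a bound. With normexp the F-test called 0 features.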

How the results depend on the processing

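With all arrays 71 features passed in the mean effect, 1 in the F-test, 23 on single days and 9 listed genes. All 14 named genes past the threshold kept their direction in every setting that measured them (9 of the 14 were left by the filter of all 32 arrays). The 14 were chosen by the mean effect on these same arrays, so their kept direction is a description and not a test. Still past the threshold were 7 of 14 in the additive model, 9 with no filter, 10 with normexp, 11 in the authors' deposited values, 12 with quantile normalization and 13 with median centring. Same-numbered runts and controls of a day correlated in their deviations at -0.09 to 0.42, over 0.1 in 13 of 16 pairs, and 10 of 16 correlated best with their own number. On every day the pairs numbered 1, 2 and 4 also shared a slide set, so these correlations cannot tell a shared litter from a shared slide set. The labels tie no number to a litter and 3 pairs were not over 0.1, so the fit without pairs was kept, which does not show that the samples are unpaired. The replicate block gave 187, with 59 on single days and 17 listed genes. It kept all 14 genes and also called MNAT1 (adjusted p = 0.0337), SLC15A1 (0.0280), DIO1 (0.00941), P4HA1 (0.0339), SULT1A3 (0.0385), PLA2G1B (0.0454) and HP (0.0339). Slide as a fixed block gave 1, 0, 0 and 0, slide as a random block 188 and 0 in the F-test, and the slide set as a block 126, 0 and 36. Within slides 1 to 3 the counts were 0, 0, 3 and 0, and within slides 4 to 9 they were 23, 0, 3 and 2. Quantile normalization gave 52 on single days, normexp 48 in the mean and 0 in the F-test, and the authors' deposited values 0 and 43. No filter on dim probes gave 44 in the mean and 5 listed genes, and the filter of all 32 arrays 116, 0 and 37. The additive model gave 4 listed genes, array weights 158 and 190, and trended variance 119, 0 and 40. Without day 37 the counts were 10, 2, 41 and 1, without day 50 they were 0, 0, 2 and 0, without day 70 the F-test gave 2, and without day 110 they were 1, 0, 4 and 0. Leaving out 1 array gave 36 to 155 in the mean, 0 to 2 in the F-test, 8 to 70 on single days and 5 to 13 listed genes. Of the calls in the mean 67.6% were higher in runts, against 43.5% within slides 4 to 9 and 54.5% with no filter.

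The sign turned for these genes, none past the threshold. Within slides 1 to 3 the effect was 0.0505 for MBL1, -0.0112 for GHR, -0.0787 for GLUL, -0.26 for CYP7A1, 0.28 for CCL2, 0.62 for CELA2A, 0.26 for AMY2, 0.32 for PGLYRP1, 0.0327 for MMP9 and 0.000695 for DLK1. Within slides 4 to 9 it was -0.0491 for HSD11B1. With normexp it was 0.0398 for WT1 and -0.0123 for HSD11B1. Without day 50 it was 0.00332 for SERPINA3-2, 0.00746 for AIF1, 0.0179 for HBE1 and 0.12 for DLK1. Without day 110 it was 0.0257 for CELA2A, 0.0917 for HBE1, 0.0683 for PGLYRP1, 0.0709 for MMP9 and -0.0265 for IGFBP3. With slide fixed it was 0.0671 for DLK1 and -0.0150 for CPA1, and with array weights -0.16 for CPA1. Leaving out 1 array gave -0.13 to 0.00234 for DLK1, -0.0205 to 0.11 for IGFBP3 and -0.0293 to 0.23 for CPA1. The cause was not tested. Dim spermadhesin and unnamed features are limited by signal over background.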
